A study of Mus musculus with 16 samples.

Results

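The genes described here encode the 5 neuronal intermediate filament subunits Nefh, Nefm, Nefl, Ina and Prph, together with Thy1 and Sncg, a pair of proteins that mark retinal ganglion cells. Members were the probe sets to which the platform annotation gives exactly 1 gene symbol, where that symbol is a listed gene. This gave 10 probe sets for 7 genes, out of 12422 probe sets without controls and 8251 genes with a symbol of their own. Ina, Prph and Sncg had 2 probe sets each and the other genes had 1.

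Neurofilaments are the intermediate filaments of neurons. They fill large axons, set axon calibre and are built from light (Nefl), medium (Nefm) and heavy (Nefh) chains, with alpha-internexin (Ina) or peripherin (Prph) as further partners. In the developing rodent brain alpha-internexin appears early, the light and medium chains follow, and the heavy chain accumulates late, as axons mature. In the adult retina, neurofilaments are best known in ganglion cells, whose axons form the optic nerve, and in horizontal cells. Thy1 and gamma-synuclein (Sncg) are widely used to mark ganglion cells.

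Transcript levels were measured on 16 1-colour oligonucleotide arrays. The retina arrays carried RNA from adult C57/B6 mice, pooled from 350 animals, on 5 arrays at the first site and 3 arrays at a second site, called site 2. The cortex arrays carried RNA from mice at postnatal day 1, pooled from 19 animals, on 5 arrays at the first site and 3 arrays at site 2. For the cortex strain the labels disagree: single samples are described as C57/B6, while the design text names Swiss-Webster. No genotype, transgene or treatment is named for either tissue. Organ, age and possibly strain differ together between the groups and cannot be told apart. The design text describes all arrays of a tissue as aliquots of 1 pool, so p-values measure the technical spread between arrays and not the spread between animals. In whole tissue, fewer cells of a type and less RNA per cell cannot be told apart.

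Levels are given as scaled intensity, the deposited intensity divided by the array's median and multiplied by 100. Differences are retina minus cortex on the log2(intensity + 16) scale after each array was centred on its median, a scale on which changes of dim probe sets come out too small. They come with their SE and with limma's p-value, Benjamini-Hochberg adjusted over all 12422 probe sets, called at 0.05. A probe set counts as above background where it exceeds the brightest of 13 control probe sets with no added target on that array. Levels of different probe sets are not compared with each other.

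The median deposited intensity of an array was between 45.7 and 216. Each array had 68.5% to 78.8% of its probe sets above background. Correlations between arrays of a group ran from 0.94 to 0.991. Replicate 2 of cortex at site 2 stood apart. It had the lowest median, 45.7, and a 5′ to 3′ signal ratio of 0.603 for the Gapdh controls, where the other arrays had 1.05 to 1.31. For the Actb controls that array had a ratio of 0.541. The Actb ratio was 0.558 to 0.667 on the retina arrays, against 0.797 to 0.962 on the other cortex arrays. The part of this ratio in the tissue differences was not tested. The median SD of log2 values over the members at site 2 was 0.14 in retina, against 0.39 in cortex, and at the first site 0.18 in both tissues. Site 2 tissue differences and counts are therefore given with that array and without it. The rod markers Gnat1, Sag, Pde6b and Nrl were all higher in retina at both sites, and all 4 measured markers of cortical projection or Cajal-Retzius neurons were lower at the first site.

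Promoter sequences of RefSeq (build GRCm38.p6) were at hand for 3 of the 7 genes, Ina, Prph and Sncg. Ina was the filament gene lower in retina, Sncg held the probe set with the largest difference toward retina, and Prph was the member near background. All 3 sequences at hand are shown. Each covers 250 bases before and 50 bases after the annotated start, 5′ to 3′ on the gene's strand. Capitals mark matches to 3 motifs searched on both strands, the TATA box as TATAAA, the GC box as GGGCGG and the E-box as CANNTG. No matches overlapped. The GC boxes here all match on the opposite strand and so read CCGCCC.
Ina, chr19:47014431-47014730, plus strand: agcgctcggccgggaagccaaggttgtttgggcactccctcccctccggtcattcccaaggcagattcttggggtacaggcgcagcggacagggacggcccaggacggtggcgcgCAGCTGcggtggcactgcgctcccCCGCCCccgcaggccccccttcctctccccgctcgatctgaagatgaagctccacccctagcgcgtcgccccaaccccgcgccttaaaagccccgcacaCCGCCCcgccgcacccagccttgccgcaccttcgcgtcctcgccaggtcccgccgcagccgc
Prph, chr15:99054924-99055223, plus strand: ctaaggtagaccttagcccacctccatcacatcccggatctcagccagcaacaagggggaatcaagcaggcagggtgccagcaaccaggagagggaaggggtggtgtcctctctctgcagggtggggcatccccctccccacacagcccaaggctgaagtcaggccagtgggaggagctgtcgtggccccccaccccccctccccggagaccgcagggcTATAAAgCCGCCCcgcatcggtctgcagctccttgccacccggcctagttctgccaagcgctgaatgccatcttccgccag
Sncg, chr14:34374620-34374919, minus strand: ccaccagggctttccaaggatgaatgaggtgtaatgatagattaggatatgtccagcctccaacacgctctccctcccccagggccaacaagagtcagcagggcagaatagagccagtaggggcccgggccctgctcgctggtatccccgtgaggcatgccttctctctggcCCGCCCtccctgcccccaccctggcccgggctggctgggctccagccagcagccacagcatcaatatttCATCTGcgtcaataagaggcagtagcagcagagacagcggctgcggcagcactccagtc

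The Ina window held 2 GC boxes, 111 and 12 bases before the start, and the E-box CAGCTG 135 bases before it. The Prph window held TATAAA 31 bases before the start and a GC box 24 bases before it. The Sncg window had a GC box 78 bases before the start and the E-box CATCTG 9 bases before it, and no TATAAA. Among 32851 mouse promoters of the same length, 13.6% held TATAAA, 35.7% a GC box and 72.3% an E-box. These are matches of letters and not measured sites. The genes lie on different chromosomes except for Nefl, Nefm and Sncg, all on chromosome 14. Nefl and Nefm are neighbours there, with 1 annotated gene between them, Gm19216, and 0 protein-coding genes.

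**Figure D1:**
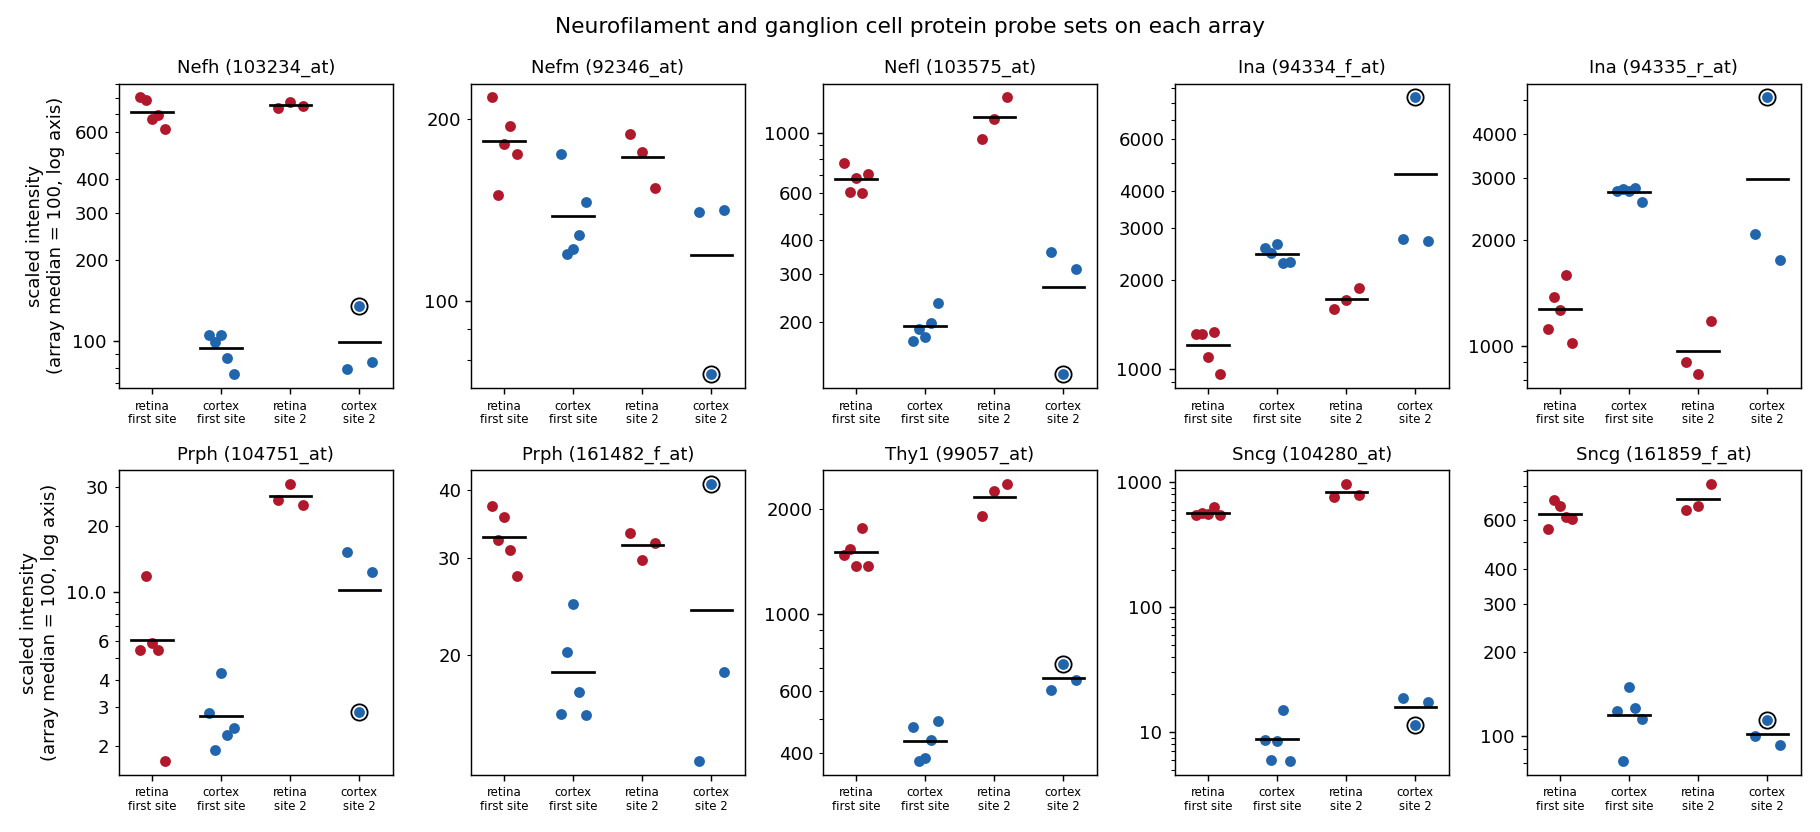
Scaled intensity (array median 100, log axis) of the 10 member probe sets on each of the 16 arrays. Red points are retina, blue points cortex, black bars group means, and a black ring marks replicate 2 of cortex at site 2. Nefh, Nefl, Thy1 and both Sncg probe sets lie higher in retina on all arrays of both sites, and both Ina probe sets lie lower.

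The heavy chain had the largest difference of the filament subunits. Nefh, whose long phosphorylated tail spaces neighbouring filaments, read 805.1, 785.2, 669.7, 691.2 and 612.4 in retina at the first site, against 105.9, 99.6, 105.7, 86.6 and 75.7 in cortex. At site 2 it read 736.1, 772.2 and 747.9 in retina, against 79.2, 135.9 and 84 in cortex. Retina was higher on all arrays and the groups did not overlap at either site. The difference was 2.74 ± 0.11 (adjusted p = 2.6e-12, n = 5 each, limma) at the first site and 2.80 ± 0.19 (adjusted p = 2.3e-06, n = 3 each, limma) at site 2. Without replicate 2 of cortex the site 2 difference was 3.01 ± 0.10 (adjusted p = 5.5e-09, limma).

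The light chain was higher in retina too. Nefl, the core on which the other chains assemble, read 771.8, 606.6, 681.3, 598.5 and 706.7 in retina at the first site, against 170.2, 188.6, 175.7, 198.1 and 234.3 in cortex. The site 2 values were 949.2, 1128.6 and 1352.9 in retina, against 363.3, 128.2 and 313.5 in cortex. The groups did not overlap at either site, and the lowest cortex value at site 2 came from the array that stood apart. The difference was 1.73 ± 0.10 (adjusted p = 3.4e-10, limma) at the first site. At site 2 it was 2.12 ± 0.33 (adjusted p = 0.00076, limma), and 1.66 ± 0.14 (adjusted p = 3.6e-06, limma) without replicate 2 of cortex.

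The medium chain differed least among the neurofilament chains. Nefm read 217.1, 149.8, 182, 195.1 and 175.3 in retina at the first site, against 174.9, 119.5, 121.8, 128.6 and 145.6 in cortex. The groups overlapped, since the highest cortex array lay above the lowest retina array. The difference of 0.39 ± 0.12 passed the test (adjusted p = 0.015, limma) but not without centring, where it was 0.47 with adjusted p = 0.11, the highest over its alternatives, whose adjusted p ran from 0.004 to 0.11. At site 2 the values were 189, 176.4 and 153.9 in retina, against 140.4, 75.7 and 141.5 in cortex. That difference, 0.50 ± 0.22, did not pass (adjusted p = 0.12, limma), and without replicate 2 of cortex it was 0.25 ± 0.13 (adjusted p = 0.14, limma). In the fit over all 16 arrays it passed, at 0.50 ± 0.19 (adjusted p = 0.042, limma), and over all its alternatives the adjusted p ran from 0.042 to 0.94.

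Alpha-internexin was lower in retina, the opposite direction to the 3 neurofilament chains. The Ina probe set 94334_f_at read 1317.9, 1318.2, 1097.4, 1338.7 and 960.7 in retina at the first site, against 2564.5, 2465.1, 2644, 2278.4 and 2298.6 in cortex. The other, 94335_r_at, had a mean of 1272 ± 225 in retina, against 2735 ± 99.8 in cortex (SD, n = 5 each). The tissues overlapped for neither probe set. The differences were −1.01 ± 0.10 (adjusted p = 1.5e-07, limma) and −1.10 ± 0.10 (adjusted p = 8e-08, limma). The suffixes f and r mark probe sets whose probes are shared with similar sequences or were chosen under relaxed rules, so signal of related genes may be included.

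At site 2, 94334_f_at read 1591.2, 1719.4 and 1881.4 in retina, against 2764.1, 8330.6 and 2705.8 in cortex. The cortex value of 8330.6 belongs to the array that stood apart, on which 94335_r_at was also highest, at 5083.6 against 2084.6 and 1749 on the other cortex arrays. The differences were −1.16 ± 0.31 (adjusted p = 0.015, limma) for 94334_f_at and −1.42 ± 0.29 (adjusted p = 0.0034, limma) for 94335_r_at. Without that array they were −0.72 ± 0.10 (adjusted p = 0.00021, limma) and −1.05 ± 0.14 (adjusted p = 0.00015, limma). The call of 94334_f_at at site 2 was lost with a pseudocount of 1, without centring, after scaling before the pseudocount, without the intensity trend and without retina replicate 1, with adjusted p between 0.055 and 0.25. That of 94335_r_at was lost without centring (adjusted p = 0.13). Over all alternatives the adjusted p ran from 6.1e-05 to 0.25 for 94334_f_at and from 2.7e-06 to 0.13 for 94335_r_at.

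Peripherin was near background. Prph, a subunit best known from peripheral neurons and distinct from the photoreceptor protein peripherin-2, had no array of either tissue above background for 104751_at at the first site. Its values there were 5.45, 11.8, 5.87, 5.47 and 1.71 in retina, against 2.83, 1.92, 4.27, 2.23 and 2.4 in cortex. No fold is given for values under background, and the test gave 0.19 ± 0.15 (adjusted p = 0.34, limma). At site 2 it was above background on 3 of 3 retina arrays (26.4, 31 and 25) and on 0 of 3 cortex arrays (15.2, 2.84 and 12.4). Retina was at least 1.51-fold higher there, with an adjusted p of 0.11 by limma (0.0095 without replicate 2 of cortex, and from 0.0095 to 0.48 over all its alternatives), so the call depended on that array and on the processing.

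The other Prph probe set, 161482_f_at, read 37.3, 32.3, 35.6, 31 and 27.8 in retina at the first site, against 15.6, 20.2, 24.7, 17.1 and 15.5 in cortex. It was above background on 4 of 5 retina arrays and 0 of 5 cortex arrays, and the groups did not overlap. Retina was at least 1.25-fold higher (log2 difference 0.51 ± 0.14, adjusted p = 0.0063, limma). In the fit over all 16 arrays the adjusted p was 0.055, and over all its alternatives it ran from 0.00084 to 0.055. At site 2, 161482_f_at read 33.3, 29.8 and 32 in retina, against 12.8, 40.9 and 18.6 in cortex. The groups overlapped through replicate 2 of cortex. The difference was 0.39 ± 0.36 (adjusted p = 0.52, limma) with that array and 0.82 ± 0.19 (adjusted p = 0.0051, limma) without it.

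Thy1, a glycosylphosphatidylinositol-anchored surface protein of the immunoglobulin superfamily, was higher in retina. It read 1471.9, 1539.4, 1374.6, 1760.7 and 1369.5 in retina at the first site, against 472.5, 378.9, 386.6, 435.1 and 491.4 in cortex. At site 2 it read 1904, 2253.2 and 2353.9 in retina, against 604.6, 719 and 644.8 in cortex. The groups did not overlap at either site. The differences were 1.77 ± 0.09 (adjusted p = 1e-10, limma) at the first site, 1.73 ± 0.14 (adjusted p = 9.8e-06, limma) at site 2 and 1.71 ± 0.11 (adjusted p = 6.4e-07, limma) there without replicate 2 of cortex. Only without centring did the site 2 difference, 1.67, miss the threshold (adjusted p = 0.074; over its alternatives from 4.5e-10 to 0.074).

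Gamma-synuclein was higher in retina on both of its probe sets, by different amounts. Sncg, a small acidic protein of the synuclein family that is abundant in ganglion cells and peripheral neurons, read 545.1, 571.3, 562.1, 630.9 and 548.4 in retina for 104280_at at the first site, against 8.59, 5.99, 8.44, 15 and 5.88 in cortex. All 5 retina arrays were above background and none of the 5 cortex arrays was, so retina was at least 21.9-fold higher (log2 difference 4.64 ± 0.12, adjusted p = 1.4e-14, limma). The size of that log2 difference depends on the pseudocount, since the cortex values are under background, and was 3.50 with 50 and 5.95 with 1. At site 2 it read 763.6, 965.7 and 784.3 in retina, against 18.9, 11.4 and 17.5 in cortex, where 1 of 3 arrays was above background. The site 2 difference was 4.73 ± 0.19 (adjusted p = 8.5e-08, limma), and 4.88 ± 0.14 (adjusted p = 2e-09, limma) without replicate 2 of cortex. It too depends on the pseudocount, from 3.83 with 50 to 5.63 with 1.

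The second Sncg probe set, 161859_f_at, gave a smaller difference. At the first site its mean was 632 ± 60.1 in retina, against 119 ± 24.9 in cortex (SD, n = 5 each), with a difference of 2.29 ± 0.12 (adjusted p = 1e-10, limma). At site 2 its mean was 714 ± 83.4 in retina, against 102 ± 10.8 in cortex (SD, n = 3 each), with a difference of 2.65 ± 0.15 (adjusted p = 8.7e-07, limma), or 2.71 ± 0.12 (adjusted p = 3.4e-08, limma) without replicate 2 of cortex. On this probe set, the brighter of the pair, the Sncg difference was below that of Nefh at both sites; the difference between the genes was not tested. Its cortex values were above background on all arrays, where 104280_at was under background at the first site. The suffix f marks probes shared with similar sequences, whose part in the cortex signal was not tested.

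**Figure D2:**
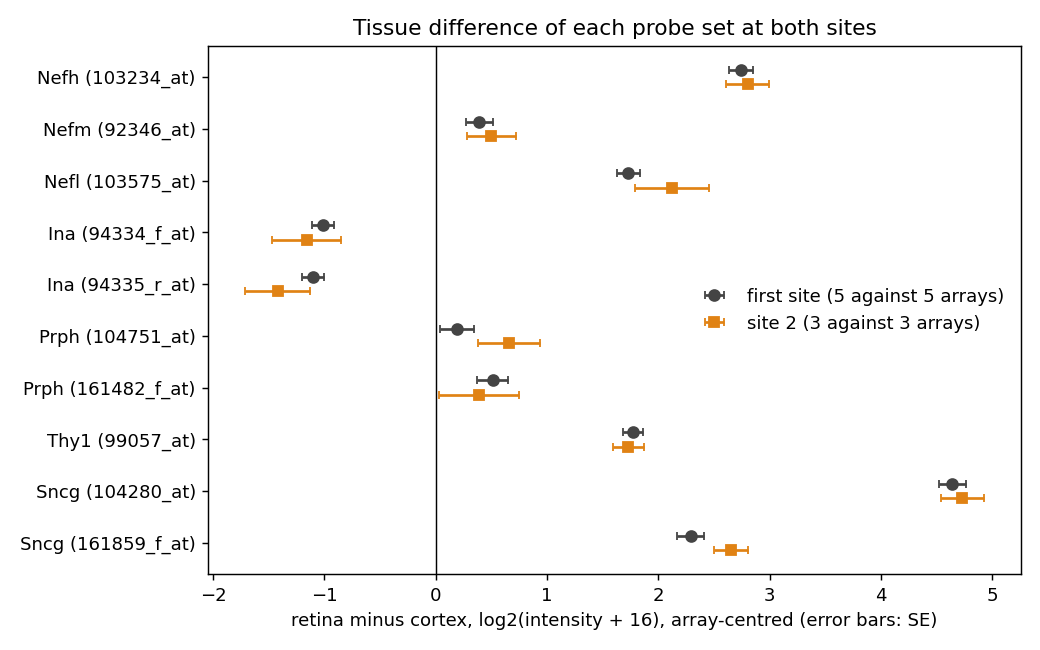
Retina minus cortex difference of each member probe set, as log2(intensity + 16) centred on the array median, with SE bars, for the first site and site 2. Sncg 104280_at lies farthest toward retina, at 4.64 and 4.73, and both Ina probe sets lie below 0.

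Of the 10 member probe sets, 7 were higher in retina, 2 lower and 1 did not pass at the first site, where 47.1% of all 12422 probe sets were called (21.9% higher and 25.2% lower). The median difference was 1.12 over the members and −0.05 over all probe sets. Groups did not overlap for 8 of the 10, against 37.9% of all probe sets. At site 2, 5 were higher, 2 lower and 3 did not pass, against 32.5% called over all probe sets (16.7% higher and 15.9% lower). The site 2 median was 1.20 over the members and −0.02 over all, and groups did not overlap for 9 of the 10, against 44.2% of all. Without replicate 2 of cortex, 7 were higher, 2 lower and 1 did not pass, against 47.9% of all probe sets called (26.6% higher and 21.3% lower). Calls between these tissues were thus frequent among all probe sets, and the count of members called is read against that share.

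The difference between tissues was tested for a difference between sites in a fit over all 16 arrays. None of the 10 member probe sets passed, with adjusted p from 0.37 to 0.96 by limma, against 3.36% of all probe sets called at adjusted p under 0.05. At an unadjusted p under 0.05 there were also 0 of the members, and the share of all probe sets at that level is not given here. The site 2 minus first site values of the tissue difference were 0.48 ± 0.30 for Prph 104751_at, 0.39 ± 0.32 for Nefl, 0.36 ± 0.20 for Sncg 161859_f_at, −0.15 ± 0.29 for Ina 94334_f_at, 0.06 ± 0.20 for Nefh and −0.04 ± 0.16 for Thy1. Without replicate 2 of cortex at site 2, 0 of 10 passed (smallest adjusted p 0.17, limma), against 5.4% of all probe sets called. The value was then −0.08 ± 0.18 for Nefl, 0.29 ± 0.16 for Ina 94334_f_at and 0.61 ± 0.26 for Prph 104751_at. For Sncg 161859_f_at it was 0.42 ± 0.20, for Nefh 0.26 ± 0.17 and for Thy1 −0.06 ± 0.16. Nefm went from 0.11 to −0.14 without the array, Ina 94335_r_at from −0.32 to 0.05, Prph 161482_f_at from −0.12 to 0.31 and Sncg 104280_at from 0.08 to 0.23. The directions for Nefl, Nefm, both Ina probe sets and Prph 161482_f_at thus turned with that array. A p that misses the threshold does not show that the sites gave the same difference.

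Differences between subunits within an array do not depend on centring, so they show whether subunits changed unequally. They were compared for all 10 pairs of the 5 filament genes, read from each gene's brightest probe set, with an exact two-sided permutation test. At the first site 9 of 10 pairs differed between retina and cortex at the smallest p the 5 against 5 design allows, 0.0079 (Benjamini-Hochberg 0.0088 over the 10 pairs, exact test). How often pairs of other genes differ was not computed. The pair counts at either site therefore do not set these subunits apart from other genes.

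The largest change was between Nefh and Ina. Nefh minus Ina was −0.74 ± 0.12 in retina, against −4.50 ± 0.12 in cortex (SD, n = 5 each), a difference of 3.76. For Nefl minus Ina the difference was 2.75, and for Nefh minus Nefm it was 2.36. Nefh minus Nefl differed by 1.01 and Nefm minus Nefl by −1.35, so the 3 neurofilament chains also differed unequally between the tissues. Nefm minus Prph, at −0.12, was the pair that did not pass (exact p = 0.53), and the Prph probe set used was under background on all cortex arrays at the first site.

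At site 2 the difference of Nefh minus Ina was 3.96, and 8 of 10 pairs did not overlap between tissues. The smallest exact p with 3 against 3 arrays is 0.1, so no pair can pass 0.05 there. Nefh minus Nefl, with a difference of 0.68, and Nefm minus Prph, with 0.11, overlapped. Without replicate 2 of cortex, which leaves 3 against 2 arrays, 10 of 10 pairs did not overlap. Nefh minus Nefl then differed by 1.35, Nefm minus Prph by −0.57, Nefh minus Ina by 3.73, Nefm minus Ina by 0.97 (1.66 with the array) and Nefl minus Prph by 0.84 (1.74 with it).

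**Figure D3:**
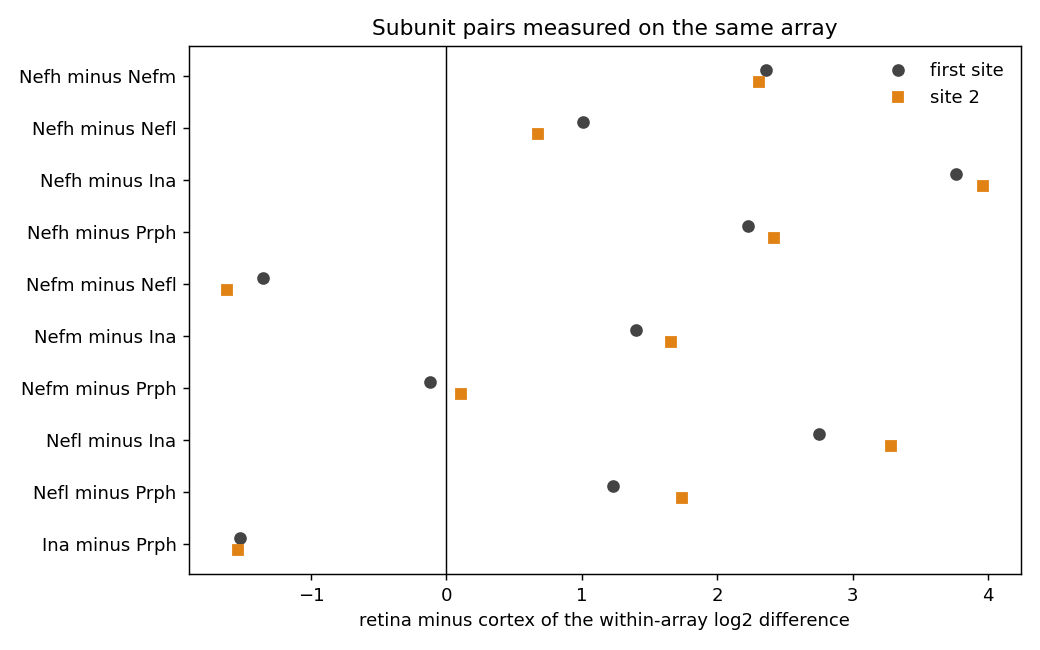
Retina minus cortex of the within-array log2 difference between 2 filament subunits, for the 10 pairs at the first site (circles) and site 2 (squares). Nefh minus Ina lies farthest right, at 3.76 and 3.96, and Nefm minus Prph lies near 0.

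Levels were also compared between sites within each tissue, where site, scanner and sample handling cannot be told apart. In retina, 4 of the 10 member probe sets were higher at site 2, 0 were lower and 6 did not pass, against 35.7% of all probe sets called (23.2% higher and 12.5% lower). They were Nefl (0.74 ± 0.23, adjusted p = 0.015), Prph 104751_at (1.07 ± 0.21, adjusted p = 0.00065), Thy1 (0.52 ± 0.11, adjusted p = 0.0013) and Sncg 104280_at (0.53 ± 0.15, adjusted p = 0.0081), all by limma. In cortex, 3 were higher, 0 lower and 7 did not pass, against 16.7% of all called (10.3% higher and 6.4% lower). Those were Thy1 (0.56 ± 0.11, adjusted p = 0.0021), Ina 94334_f_at (0.66 ± 0.21, adjusted p = 0.033) and Sncg 104280_at (0.45 ± 0.15, adjusted p = 0.042). Nefh and Nefm did not pass in either tissue, and Nefh was 0.08 ± 0.14 in retina and 0.01 ± 0.14 in cortex.

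Without replicate 2 of cortex at site 2, the cortex comparison called Nefl (0.81 ± 0.14, adjusted p = 0.00032) and Thy1 (0.58 ± 0.12, adjusted p = 0.0016) higher and Ina 94335_r_at lower (−0.45 ± 0.14, adjusted p = 0.018). Ina 94334_f_at was then 0.23 ± 0.12 (adjusted p = 0.13) and Sncg 104280_at 0.30 ± 0.15 (adjusted p = 0.11), so neither passed. Both calls were near the threshold in other settings too: of 24 alternatives, the Sncg call was lost in 15 and the Ina call in 9. Of all probe sets, 40.1% were called in cortex without it (17.5% higher and 22.5% lower). In retina, where the array enters through the shared spread, 5 were then higher and 1 lower, against 43.4% of all probe sets called (27.5% higher and 15.9% lower). The one lower was Ina 94335_r_at (−0.39 ± 0.12, adjusted p = 0.013).

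**Figure D4:**
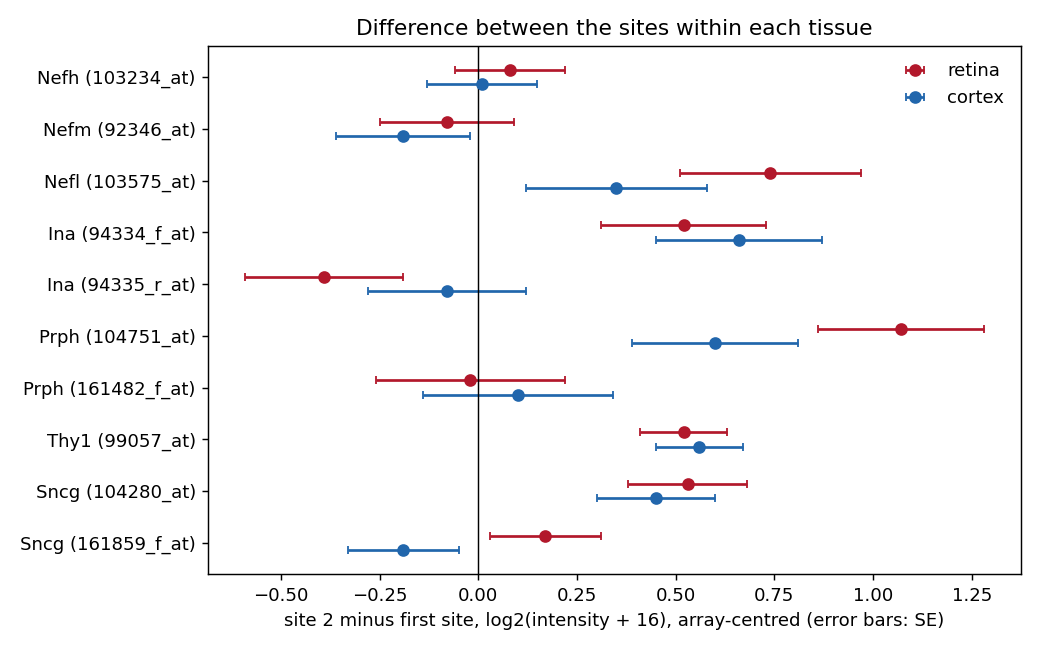
Site 2 minus first site difference of each member probe set, as log2(intensity + 16) centred on the array median with SE bars, in retina (red) and cortex (blue). Nefh stays near 0 in both tissues and Prph 104751_at lies at 1.07 in retina and 0.60 in cortex.

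Genes that act with neurofilaments were described from a list of transport motors, linkers, kinases and turnover factors, of which 23 of 31 were measured. At the first site 17 were lower in retina, 1 higher and 5 did not pass, with a median difference of −0.75, against −0.04 over all genes and 53.5% of genes called (25.5% higher and 28% lower). The largest differences were in Mapt (tau, an axonal microtubule-binding protein), at −2.31 ± 0.09 (adjusted p = 1.5e-12, limma), the kinesin heavy chain Kif5c at −1.75 ± 0.18 (adjusted p = 4.3e-07, limma) and Cdk5r1, the activator of the neurofilament kinase Cdk5, at −1.75 ± 0.13 (adjusted p = 7.5e-09, limma). Dctn1, the large subunit of dynactin, was the member higher in retina, at 0.63 ± 0.07 (adjusted p = 9.6e-07, limma).

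At site 2, 8 were lower, 2 higher and 13 did not pass, with a median of −0.40, against −0.01 over all genes and 38% of genes called (20.1% higher and 17.9% lower). Mapt was −2.39 (adjusted p = 0.00019) and Dctn1 1.28 (adjusted p = 0.00039) there, and Kif5c at −0.82 and Cdk5r1 at −0.99 did not pass (adjusted p = 0.38 and 0.2). Leaving out replicate 2 of cortex, 12 were lower, 2 higher and 9 did not pass, with a median of −0.37, against 0.11 over all genes and 52.2% of genes called (28.7% higher and 23.5% lower). Kif5c was then −1.74 (adjusted p = 2.9e-06) and Cdk5r1 −1.79 (adjusted p = 3.3e-07), and both passed. Mapt was −1.97 (adjusted p = 2.8e-07) and Dctn1 1.10 (adjusted p = 1.8e-05).

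**Figure D5:**
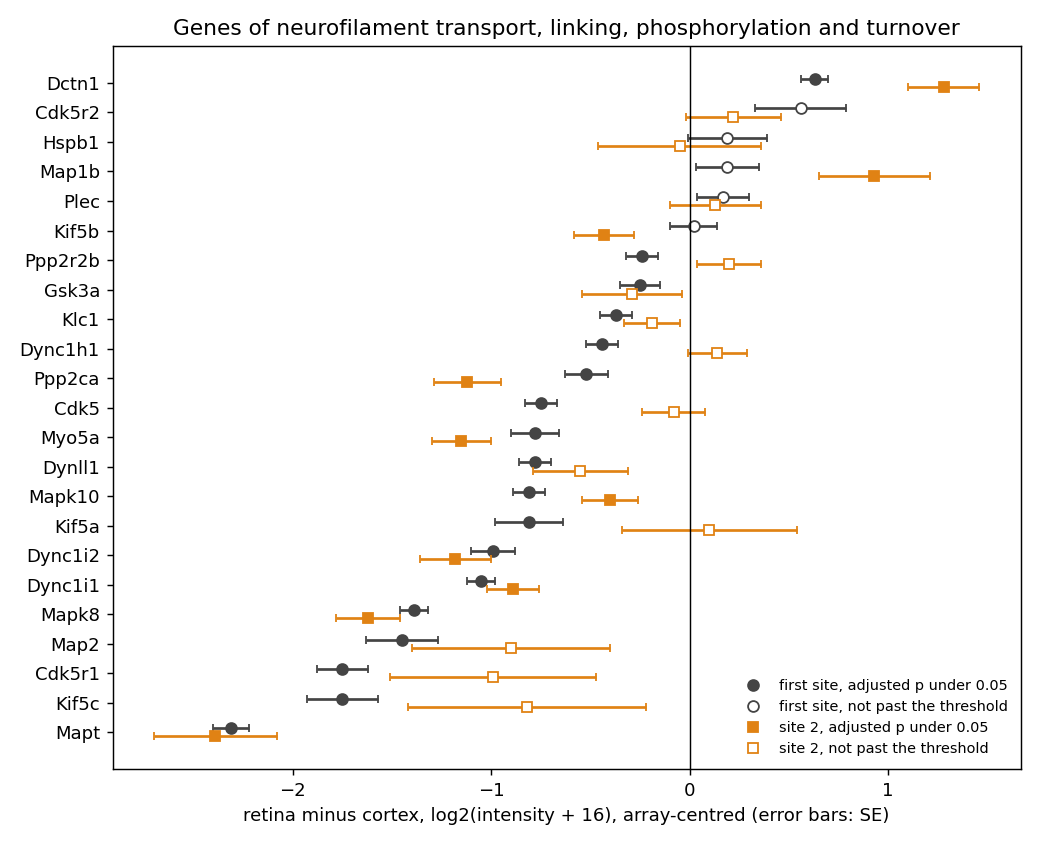
Retina minus cortex difference of the 23 measured genes of neurofilament transport, linking, phosphorylation and turnover, as log2(intensity + 16) centred on the array median with SE bars. Circles are the first site and squares site 2, filled where the adjusted p is under 0.05. Mapt lies lowest, at −2.31 and −2.39, and Dctn1 highest, at 0.63 and 1.28.

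Among other intermediate filament genes, 15 of 18 were measured, of which 2 were higher in retina, 5 lower and 8 did not pass at the first site, with a median of −0.18, against 53.5% of all genes called. Krt18, a simple epithelial keratin, read 347 ± 36.4 in retina, against 34.9 ± 7.09 in cortex (difference 2.88 ± 0.13, adjusted p = 1.3e-11, limma). Nes, the intermediate filament of neural progenitors, read 118 ± 22.6 in retina, against 625 ± 47.2 in cortex (−2.28 ± 0.11, adjusted p = 4.1e-11, limma), and Lmna, an A-type lamin, differed by −1.03 ± 0.08 (adjusted p = 1.6e-08, limma). At site 2, 3 were higher, 3 lower and 9 did not pass, against 38% of all genes called. The counts were equal without replicate 2 of cortex, against 52.2% of all genes called.

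Both measured synucleins of 3 were higher in retina at both sites (25.5% and 20.1% of all genes were called higher). Beside Sncg these included Sncb, beta-synuclein, at 1665 ± 53.4 in first-site retina, against 762 ± 48.1 in cortex (1.12 ± 0.06, adjusted p = 2.8e-10, limma), and 2.06 (adjusted p = 0.00062) at site 2, or 1.69 (adjusted p = 6.4e-05) without replicate 2 of cortex. Of 12 other glycosylphosphatidylinositol-anchored surface proteins, 8 were measured. For these, 2 were higher, 5 lower and 1 did not pass at the first site, against 53.5% of all genes called. At site 2, 1 was higher, 4 lower and 3 did not pass, against 38% of all genes called. Without replicate 2 of cortex 2 were higher, 4 lower and 2 did not pass, against 52.2% of all genes called. Cd59a, a complement inhibitor, was higher (3.88 ± 0.10, adjusted p = 2.6e-14, limma). Ly6h (−2.45 ± 0.08, adjusted p = 3e-13, limma) and the proteoglycan Gpc1 (−1.56 ± 0.09, adjusted p = 2.5e-10, limma) were lower.

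Markers of other cells were read beside these genes. Of 17 ganglion cell markers 11 were measured, and at the first site 5 were higher in retina, 4 lower and 2 did not pass. Their median was 0.12, and 53.5% of all genes were called. Tbr1 at −4.61 ± 0.09 (adjusted p = 6.1e-16), Gap43 at −3.42 ± 0.10 (adjusted p = 1.2e-13) and Stmn2 at −2.86 ± 0.09 (adjusted p = 1.2e-13) were lower by limma, and each is also a gene of young cortical neurons. The 5 called higher by limma were Isl1 at 1.96 ± 0.10 (adjusted p = 9.3e-11), Chrna6 at 1.70 ± 0.16 (adjusted p = 1.2e-07), Rbpms at 1.52 ± 0.10 (adjusted p = 2.3e-09), Ebf3 at 0.75 ± 0.09 (adjusted p = 3.9e-06) and Ebf1 at 0.46 ± 0.16 (adjusted p = 0.029). Summed over the list, scaled intensity was 4618 to 5130 in retina, against 20541 to 25784 in cortex, and 1 marker was at or under background in both, Atoh7. The largest part came from Tubb3 (2300 ± 94.5 in retina, against 8648 ± 1127 in cortex). The 4 markers called lower, Tubb3, Stmn2, Gap43 and Tbr1, together summed to 3539 to 4010 in retina, against 20091 to 25332 in cortex. Tbr1 held little of the retina sum, at 70.3 ± 6.27. The other 7 markers, those not called lower, summed to 1048 to 1252 in retina, against 423 to 503 in cortex. This split was made by direction after the values were seen. A higher retina sum of the other 7 was therefore bound to follow, and nothing is concluded from it. At site 2, 4 of the 11 ganglion cell markers were higher, 4 lower and 3 did not pass, against 38% of all genes called. Without replicate 2 of cortex the counts were equal, against 52.2% of all genes called. The part of ganglion cell number in the members' differences was not tested.

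Horizontal cells, the other retinal site of neurofilaments, had 5 of 7 markers measured. Of these, Calb1 (1.58 ± 0.08, adjusted p = 6.6e-11, limma) and Prox1 (1.24 ± 0.14, adjusted p = 1.1e-06, limma) were higher at the first site and 2 did not pass, against 53.5% of all genes called. Gjb6 was called lower (adjusted p = 0.0077, limma) but was above background on 0 of 5 retina arrays and 2 of 5 cortex arrays, so no size is given. At site 2 Gjb6 was lower too (adjusted p = 0.0035, limma), above background on 0 of 3 retina arrays and 3 of 3 cortex arrays. Cortex was at least 1.98-fold higher there. The summed level of the horizontal cell list at the first site was 1007 to 1165 in retina, against 457 to 503 in cortex. Most of the retina sum came from Calb1, at 667.7 ± 55.2 in retina, against 214.5 ± 16.2 in cortex. Thy1 is also made by T cells. Of 6 T cell markers measured 0 passed at either site with all arrays. Of all genes, 53.5% were called at the first site and 38% at site 2. In both tissues at the first site 5 of the T cell markers were at or under background, with Cd4 as the exception. With replicate 2 of cortex left out, Cd3d passed at site 2 (adjusted p = 0.006, limma), where 52.2% of all genes were then called. All site 2 values of Cd3d were at or under background. Of the Schwann cell and peripheral neuron list, 4 of 7 were measured. At the first site 1 was higher and 1 lower, against 53.5% of all genes called. At site 2, 2 were higher and 1 lower, against 38% of all genes called. Of the adipocyte list, 3 of 5 were measured, with 0 called at the first site and 1 higher at site 2, beside the same shares of all genes. The adipocyte gene called was Fabp4, a fatty acid carrier, with an adjusted p of 0.03 by limma (0.00047 without replicate 2 of cortex), where retina was at least 1.76-fold higher.

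Genes most like each member were found by the smallest root mean square difference between profiles over the 16 arrays, among 4877 or 4878 probe sets of moderate or high signal. They were Fos (0.15) and Map7 (0.18) for Nefh, Adsl (0.13) and Cul1 (0.17) for Nefm, Nsf (0.21) and Dkk3 (0.24) for Nefl, and Zbtb16 (0.16) and Smad1 (0.18) for Ina. For Prph they were Ssx2ip (0.15) and Tubgcp4 (0.16), for Thy1 Ckmt1 and Pef1 (both 0.15), and for Sncg Lrba (0.21) and Mylk (0.23). Arrays of a group share an RNA pool, so 16 arrays hold only 4 group profiles. Each member was read from its brightest probe set, which for Sncg is 161859_f_at. Between members so read, Nefh and Sncg were most alike, at 0.29, followed by Nefl and Thy1 at 0.35. Nefh and Ina were least alike, at 1.94. The other Sncg probe set, 104280_at, was not compared here, and its first-site tissue difference was 4.64, against 2.74 for Nefh.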

How the data were processed

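The deposited intensities, 1 per probe set and array on a linear scale, were made by the authors from 1-colour oligonucleotide arrays of about 10 µg total RNA per the labels' protocols. How probes were summarised, background-corrected or scaled is not given in the sources used here. Values were turned into log2(intensity + 16), each array was centred on its median, and 66 of 12488 probe sets, the controls, were not tested. Linear models used limma 3.58.1 in R 4.3.3 (lmFit, eBayes with an intensity trend), with Benjamini-Hochberg adjustment over 12422 probe sets and a threshold of 0.05. Each site was fitted alone, and the interaction and the site differences over 16 arrays. Subunit pairs were tested with exact permutation tests. The procedure was tested on simulated data. Gene names came from the platform annotation, where 10833 probe sets had 1 symbol, 396 several and 1193 are unnamed here. A gene with several probe sets is read from the brightest for the lists, the pairs and the members' profiles.

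Members, lists and the rule for named genes (all members; per list the 3 largest differences among called genes and the one that moved most against the majority; the 2 most alike per member) were chosen with earlier results of these data known. The background level was chosen after seeing the data. Replicate numbers did not pair samples, with correlations of deviations from −0.19 to 0.04 at the first site and 0.01 to 0.08 at site 2. The alternatives were other pseudocounts, no centring, quantile normalization, scaling before the pseudocount, brighter probe sets only, no trend, a replicate block, all arrays in one fit, and leaving out each array.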

Additional observations from a re-analysis of the deposited data

How the results depend on the processing

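The number of member probe sets called higher in retina at the first site stayed at 6 or 7 and the number called lower at 2 under the alternatives run. The share of all probe sets called there ran from 35.5% without centring to 70.3% among brighter probe sets only. At site 2 the count called lower, 2, was 1 with a pseudocount of 1, 0 without centring, 1 after scaling to a median of 100 before the pseudocount and 1 without the intensity trend, and leaving out 1 array gave 1 to 2 (1 without retina replicate 1). Without centring, 781 of all probe sets were called at site 2 (6.29%), against 4043 with it (32.5%). The share called there was 32.6% with a pseudocount of 1 and 32.5% after scaling before the pseudocount. It was 27.9% without the intensity trend and 25.5% without retina replicate 1. Between sites in retina, the 4 called higher became 1 without centring and 2 with quantile normalization (3 to 5 leaving out 1 array), and the 0 called lower became 1 with quantile normalization (0 to 1 leaving out 1 array). The share of all probe sets called in retina was 35.7%. It was 2.33% without centring, 33.3% with quantile normalization and 26.5% to 43.4% leaving out 1 array. In cortex the 3 called higher became 0 without centring and 1 to 4 leaving out 1 array (1 without cortex replicate 2 or 5 of the first site), with 0 to 1 called lower. The share of all probe sets called in cortex was 16.7%. It was 0.636% without centring and 11.9% to 40.1% leaving out 1 array (14% without replicate 2 and 16.4% without replicate 5 of the first site). Within arrays at site 2, Nefm minus Prph (0.11) was −0.03 on the mean of all probe sets and ran from −0.57 to 0.48 leaving out 1 array. Nefh minus Ina (3.96) was 3.64 with a pseudocount of 50, and Ina minus Prph (−1.54) was −1.75 with a pseudocount of 1, −1.38 with 50, −1.81 on the mean of all probe sets and −1.66 with quantile normalization. The cause was not tested. The replicate block changed no tissue call of a member, and gave 5771 calls over all probe sets at the first site, against 5850; in cortex, the site difference of Ina 94334_f_at was 0.60 (adjusted p = 0.074) under it. At the first site 2 of 5 numbers were each other's best match, and 1 of 3 at site 2. Among brighter probe sets only, Prph was not tested. Signal near background limits Prph and the cortex value of Sncg.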

Other observations

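The difference between the 2 probe sets of a gene was compared between sites for Ina, Prph and Sncg, a comparison chosen after their values were seen and made within arrays with exact two-sided permutation tests (3 against 5 arrays, smallest p 0.018, 6 tests). For Ina, 94334_f_at minus 94335_r_at was 0.84 ± 0.18 at site 2 and −0.07 ± 0.19 at the first site in retina (exact p = 0.018, Benjamini-Hochberg 0.036). In cortex it was 0.58 ± 0.16 at site 2 and −0.16 ± 0.09 at the first site (exact p = 0.018, Benjamini-Hochberg 0.036). For Prph in retina, 104751_at minus 161482_f_at was −0.14 ± 0.15 at site 2 and −1.24 ± 0.28 at the first site (exact p = 0.018, Benjamini-Hochberg 0.036). For Sncg in cortex, 104280_at minus 161859_f_at was −1.85 ± 0.16 at site 2 and −2.49 ± 0.32 at the first site (exact p = 0.036, Benjamini-Hochberg 0.054). The sites overlapped for Prph in cortex (exact p = 0.089) and for Sncg in retina (exact p = 0.071). Prph 104751_at was above background on 0 of 5 first-site retina arrays. Sncg 104280_at was above background on 0 of 5 first-site cortex arrays and 1 of 3 at site 2. The sizes of these Prph and Sncg differences therefore depend on the pseudocount. How often probe set pairs of other genes differ between sites is not given here.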
